A study of Macaca mulatta with 9 samples.

Results

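The genes described here form the core of the circadian clock: the REV-ERB receptors NR1D1 and NR1D2, the period genes PER1, PER2 and PER3, the cryptochromes CRY1 and CRY2, the activators CLOCK and ARNTL (also written BMAL1), and the output factor DBP. They were followed across the ovaries of rhesus monkeys of different ages. All probe sets with 1 of these 10 symbols in the array annotation were taken, which gave 11 probe sets of 7 genes among the 52766 probe sets tested. NR1D2, CRY1 and DBP had no probe set with their symbol or gene identifier, so they have no value here. NR1D1, ARNTL, PER2 and PER3 had 2 probe sets each, and PER1, CRY2 and CLOCK had 1 each.

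Ovarian RNA came from 9 female monkeys, 1 monkey per array. The young group held 3 monkeys of 3 to 4 years that cycled but had never bred, the middle-aged group 3 of 7 to 8 years with good reproductive capacity, and the old group 3 of 18 to 19 years that had lost it. By the study's methods all animals were housed under the same light cycle and collected in the same month under pentobarbital anaesthesia, with perfusion by cold buffer. Young and middle-aged ovaries were taken at about proestrus according to the breeding records, and no stage is given for the old ovaries, so age and cycle stage cannot be told apart. The hour of collection, on which the level of a clock transcript depends where the clock runs, is not given in the sources used here. Each sample was a piece of whole ovary, so the values are sums over all its cell types, and fewer cells of a type and less RNA per cell cannot be told apart.

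In the clock, CLOCK and ARNTL bind together to E-box sequences and switch on the PER, CRY, NR1D and DBP genes. PER and CRY proteins then return to the nucleus and block CLOCK and ARNTL, while NR1D1 and NR1D2, nuclear receptors that bind haem, repress the ARNTL gene itself. When this loop runs in a tissue, ARNTL RNA is usually high at the hours when NR1D1 and PER RNA are low. Granulosa, theca and luteal cells of the mammalian ovary are known to carry such a clock, and genes of steroid synthesis are among its described outputs.

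Among the clock genes, NR1D1 was the gene with a change that passed the test, and it was higher in old than in young ovaries at 1 of its 2 probe sets. Its probe set MmuSTS.3017.1.S1_at (Entrez gene 699472) had intensities of 62.8, 52.1 and 60.1 in the 3 young ovaries. It read 97.8, 93.4 and 97.8 in the middle-aged ovaries and 114, 140.2 and 112 in the old ovaries. Every old ovary lay above every middle-aged ovary, and every middle-aged ovary above every young ovary. Of all probe sets, 0.250% had this rising order without overlap and 0.320% the falling order. Group means were 58.3 ± 5.56 in young, 96.4 ± 2.56 in middle-aged and 122 ± 15.7 in old ovaries (SD, n = 3 each).

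Old ovaries had 2.09 times the NR1D1 intensity of young ovaries at this probe set, a log2 fold change of 1.06 with a standard error of 0.13 and a 95% interval of 0.78 to 1.35 (limma, adjusted p = 0.0292). It was 1 of 82 probe sets called between old and young, where a call needed a fold of 1.5 or more and, after Benjamini-Hochberg adjustment, a p under 0.05. These make up 0.155% of all probe sets. The rise was known from earlier results of these arrays, so it is described rather than newly supported. Between middle-aged and young ovaries the log2 fold change was 0.73 with a standard error of 0.13 (limma, unadjusted p = 0.000329, adjusted p = 0.963). Between old and middle-aged ovaries it was 0.33 with a standard error of 0.13 (limma, adjusted p = 0.586). Neither of these steps passed the threshold, although the groups did not overlap in either.

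The old-to-young call rested on a small margin. The log2 fold change stayed positive, between 0.57 and 1.16, under all 21 alternative settings, but the call held under 9 of them and was lost under 12. It was lost when young 2 (adjusted p = 0.135), young 3 (0.101), middle-aged 1 (0.0569), middle-aged 2 (0.0772), middle-aged 3 (0.0536) or old 1 (0.0607) was left out, each by limma, and it held without young 1, old 2 or old 3. The residual SD of this probe set was 0.13 on the log2 scale, at the 20.01 percentile of all probe sets. It was therefore among the less variable probe sets within an age group.

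The other NR1D1 probe set did not follow this pattern. MmugDNA.17902.1.S1_at had intensities of 20.3, 13.2 and 14.3 in young ovaries, 24.0, 14.5 and 14.8 in middle-aged ovaries, and 18.2, 16.9 and 14.9 in old ovaries. The 3 groups overlapped throughout, and the highest values were those of middle-aged 1 and young 1. The log2 fold change between old and young was 0.09 with a standard error of 0.23 (limma, adjusted p = 0.907). Its 95% interval of -0.45 to 0.62 lay below that of the brighter probe set. The median probe set read between 24.3 and 25.9 on the 9 arrays, so this probe set stayed under the array median while the brighter one stayed above it. The files give no detection calls, so neither is known to stand above background. Across the 9 ovaries the log2 values of the 2 probe sets had a Pearson r of 0.26, given as a description. The log2 ratio of the brighter to the dimmer was 0.98 higher in old than in young ovaries (exact permutation test, two-sided p = 0.1, the smallest that 3 against 3 arrays allow). Averaged into 1 value per gene, NR1D1 had a log2 fold change of 0.57 and was not called (limma, adjusted p = 0.192).

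**Figure D1:**
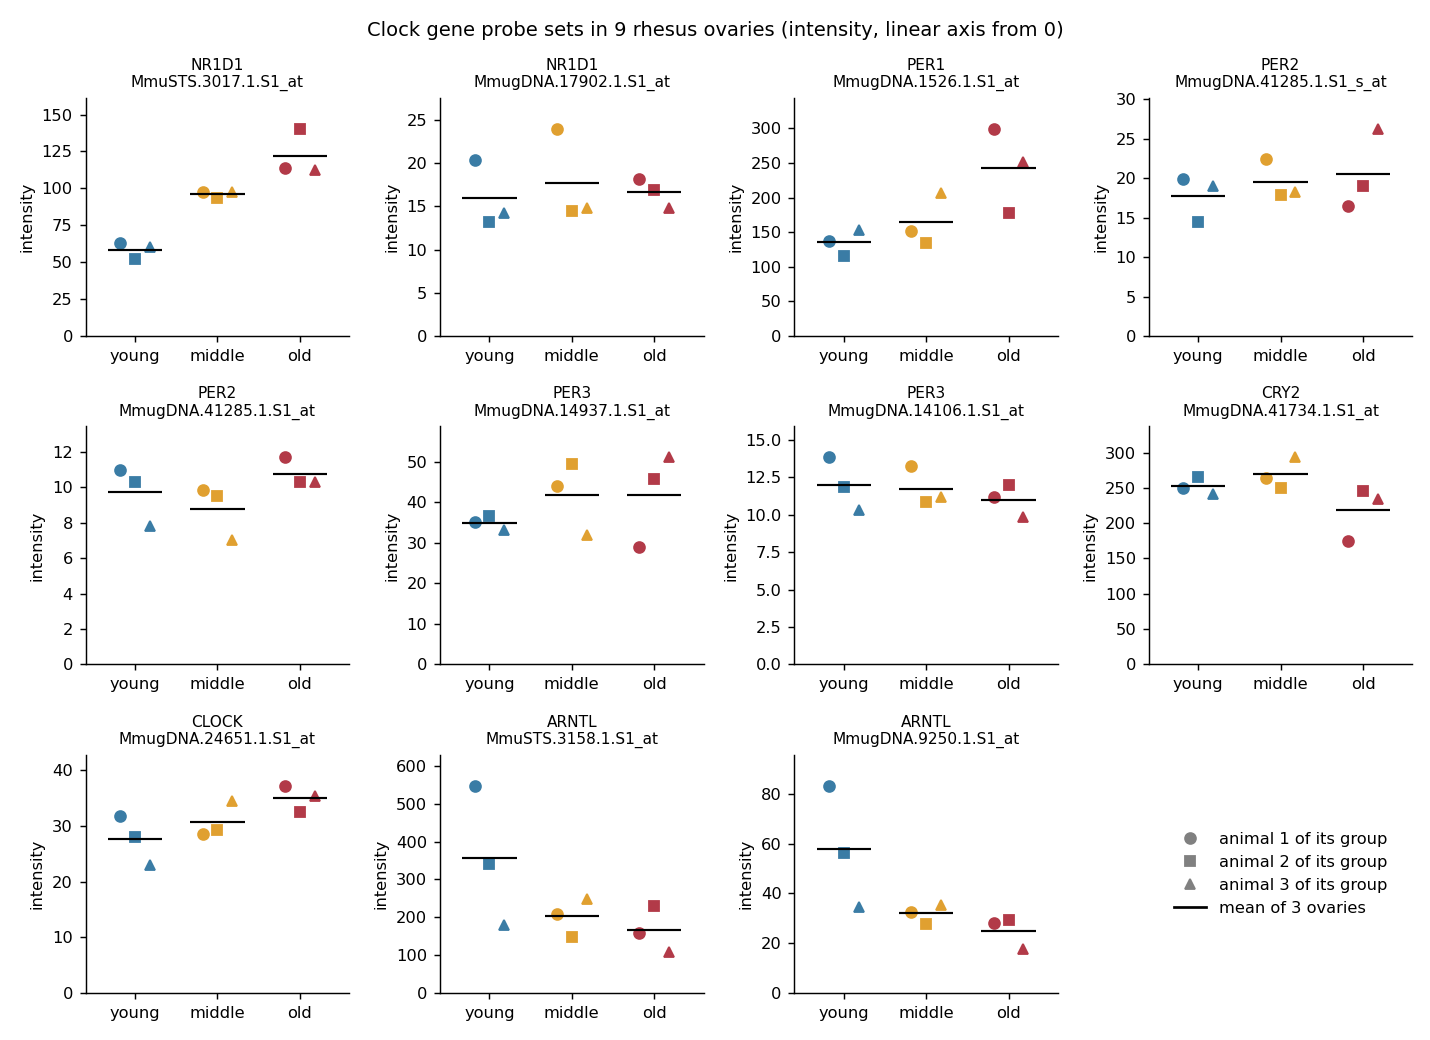
Intensity of each of the 11 clock gene probe sets on a linear axis from 0, with 1 point per ovary, the marker shape giving the animal's number within its group and the horizontal line the mean of 3 ovaries. NR1D1 at MmuSTS.3017.1.S1_at steps up from 52.1 to 62.8 in young through 93.4 to 97.8 in middle-aged to 112 to 140.2 in old ovaries, while its other probe set overlaps between all groups.

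The period genes make the repressor proteins of the main loop. PER1, which is also an acutely induced gene, had the highest old-to-young difference among them. MmugDNA.1526.1.S1_at (Entrez gene 721948) read 138, 116 and 153 in young ovaries, 152, 134 and 207 in middle-aged ovaries, and 299, 178 and 252 in old ovaries. Each old ovary was above each young ovary, whereas the old and middle-aged ranges overlapped. Old over young gave a log2 fold change of 0.82 with a standard error of 0.23 and a 95% interval of 0.29 to 1.35, and it did not pass the threshold (limma, unadjusted p = 0.00696, adjusted p = 0.2002). Old over middle-aged gave 0.55 with a standard error of 0.23 (limma, adjusted p = 0.620), and middle-aged over young 0.26 with the same error. With 1 array or the arrays numbered 3 left out, or another setting chosen, the old-to-young value ran from 0.65 to 1.03 and was never called.

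PER2 and PER3 showed no such separation from young to old. PER2 (Entrez gene 696476) was read by MmugDNA.41285.1.S1_s_at at 14.4 to 19.9 in young, 17.9 to 22.4 in middle-aged and 16.5 to 26.3 in old ovaries. Its other probe set, MmugDNA.41285.1.S1_at, read 7.84 to 10.97, 7.03 to 9.84 and 10.3 to 11.7 in the same order. Their log2 fold changes between old and young were 0.20 and 0.16 (limma, adjusted p = 0.714 and 0.727). At the second of them the old ovaries lay above the middle-aged ovaries without overlap, by 0.31 on the log2 scale (limma, adjusted p = 0.721). These readings were near the first quartile of the arrays, which ranged from 9.001 to 9.58.

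PER3 (Entrez gene 722059) was read by MmugDNA.14937.1.S1_at at 35.1, 36.6 and 33.1 in young ovaries, 44.1, 49.5 and 32.0 in middle-aged ovaries, and 29.0, 45.7 and 51.1 in old ovaries. The young ovaries lay close together, and the old ovaries spread over the whole range, with old 1 the lowest of the 9. Old and young differed by 0.22 on the log2 scale with a standard error of 0.23 (limma, adjusted p = 0.716). The dim probe set MmugDNA.14106.1.S1_at, at 9.88 to 13.8 over all ovaries, gave -0.12. The paired probe sets of PER2 and of PER3 had Pearson r values of -0.01 and -0.12 across the 9 ovaries, as a description.

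CRY2, the cryptochrome measured here, is a flavin-related repressor that acts with the PER proteins. MmugDNA.41734.1.S1_at (Entrez gene 715000) read 249, 266 and 242 in young ovaries, 264, 249.6 and 293 in middle-aged ovaries, and 175, 246 and 235 in old ovaries. The old ovaries lay below the middle-aged ovaries without overlap, and old 1 stood apart as the lowest of the 9. The log2 fold change was -0.31 with a standard error of 0.15 between old and middle-aged ovaries (limma, adjusted p = 0.654) and -0.22 between old and young ovaries (limma, adjusted p = 0.548). Its residual SD on the log2 scale was 0.17, at the 36.4 percentile of all probe sets.

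CLOCK encodes the histone acetyltransferase partner of ARNTL. MmugDNA.24651.1.S1_at (Entrez gene 697532) read 31.8, 28.0 and 23.1 in young ovaries, 28.5, 29.3 and 34.4 in middle-aged ovaries, and 37.2, 32.5 and 35.4 in old ovaries. Old ovaries lay above young ovaries without overlap, by a narrow gap between 31.8 in young 1 and 32.5 in old 2. The log2 fold change of 0.35 with a standard error of 0.14 did not pass the threshold (limma, unadjusted p = 0.0377, adjusted p = 0.339).

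ARNTL, the activator whose gene NR1D1 represses, read lower on average in the old ovaries, but neither probe set passed the test. MmuSTS.3158.1.S1_at (Entrez gene 700464) read 547, 341 and 180.1 in young ovaries, 209.5, 149 and 249 in middle-aged ovaries, and 159, 228 and 109 in old ovaries. Young 1 and young 2 were the highest of the 9, while young 3 lay inside the range of the other groups. MmugDNA.9250.1.S1_at read 83.2, 56.1 and 34.6 in young ovaries, 32.6, 27.8 and 35.4 in middle-aged ovaries, and 28.2, 29.3 and 17.5 in old ovaries. Here the old ovaries lay below the young ovaries without overlap. The 2 probe sets followed each other across the ovaries with a Pearson r of 0.96, as a description.

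The ARNTL log2 fold changes between old and young were -1.03 with a standard error of 0.42 (limma, adjusted p = 0.342) and -1.16 with a standard error of 0.32 (limma, unadjusted p = 0.00628, adjusted p = 0.194). In size these were near the 1.06 of NR1D1, whose standard error was 0.13. The residual SD of the brighter ARNTL probe set was 0.60 on the log2 scale, at the 91.8 percentile of all probe sets, and that of the other was 0.45, at the 85.5 percentile. Without young 1 the log2 fold changes were -0.65 and -0.85, and without young 3 they were -1.45 and -1.49. Between middle-aged and young ovaries the values were -0.70 and -0.78, and between old and middle-aged ovaries -0.32 and -0.38.

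**Figure D2:**
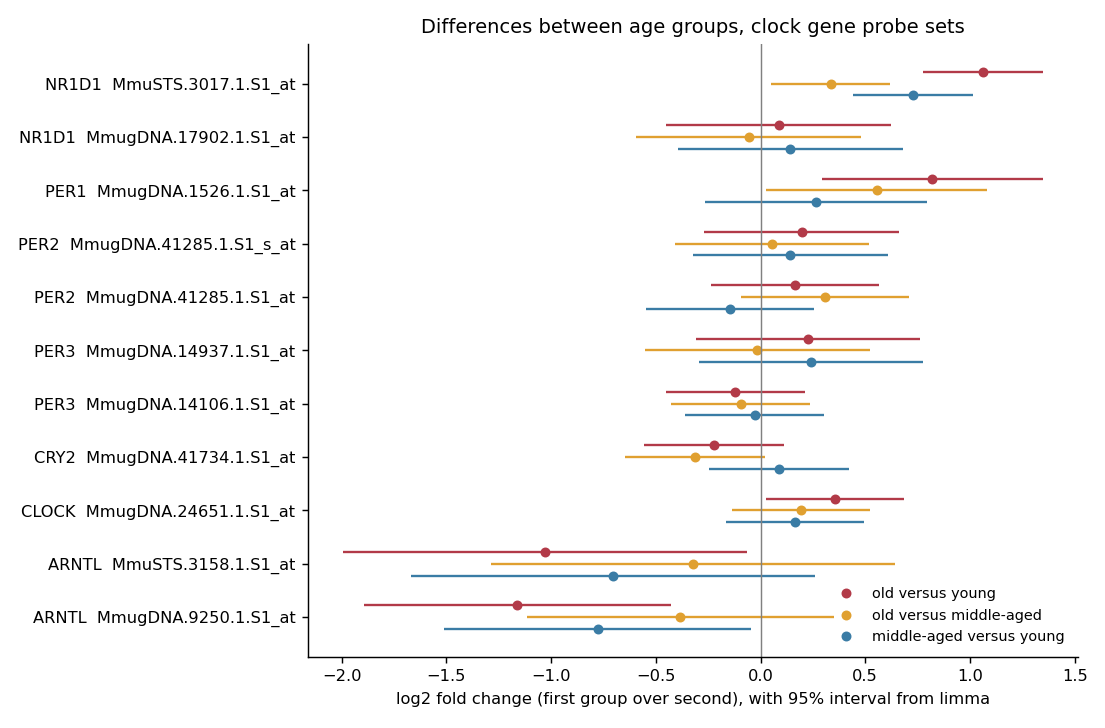
Log2 fold change of each clock gene probe set in the 3 comparisons, as a point with its 95% interval from limma, with a vertical line at 0. The intervals of NR1D1 at MmuSTS.3017.1.S1_at (0.78 to 1.35 for old over young) are narrow and to the right of 0, those of ARNTL are wide and mostly to the left, and most others span 0.

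Between old and young ovaries, 1 of the 11 clock probe sets was called, against 0.155% of all probe sets. At an unadjusted p under 0.05 from limma, 3 were higher (NR1D1, PER1 and CLOCK) and 2 lower (both of ARNTL), which is 45.5% of the 11 against 13.5% of all probe sets. The 2 of ARNTL followed each other across the ovaries (Pearson r = 0.96), so they are not separate units. The rise of NR1D1 was known beforehand, so this share is a description only. Without overlap between groups, 3 lay higher and 1 lower in old ovaries, where 7.38% and 9.46% of all probe sets did. The median log2 fold change was 0.16 over the clock probe sets and 0.01 over all. The arrays of both comparisons with young ovaries share the young samples, and those of both comparisons with old ovaries share the old samples, so counts in different comparisons are not independent.

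Between old and middle-aged ovaries none of the 11 was called by limma, where 0.0341% of all probe sets were. At an unadjusted p under 0.05 there were 2 (NR1D1 and PER1, both higher in old ovaries), which is 18.2% of the 11 against 7.87% of all probe sets. Without overlap, 2 lay higher (NR1D1 and PER2) and 1 lower (CRY2), beside 5.33% and 6.49% of all probe sets. Between middle-aged and young ovaries none was called by limma, against 0.00190% of all probe sets, which is a single probe set. At an unadjusted p under 0.05, NR1D1 was higher and an ARNTL probe set was lower in middle-aged ovaries, again 18.2% of the 11, against 3.18% of all probe sets. NR1D1 alone lay higher there without overlap and no clock probe set lay lower, beside 4.43% and 4.35% of all probe sets. Significance analysis of microarrays (SAM), a test that the study used, called none of the 11 in any comparison.

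Since the clock loop sets ARNTL against its repressors, ARNTL was compared across the 9 ovaries with the other measured clock genes, each by its brightest probe set on the log2 scale. The Pearson r with NR1D1 was -0.56 (exact permutation test, two-sided p = 0.119, adjusted p = 0.358 over 6 relations) and the Spearman rho -0.38 (exact p = 0.305, adjusted p = 0.469). The r with PER1 was -0.56 (exact p = 0.115, adjusted p = 0.358) and the rho -0.43 (exact p = 0.250, adjusted p = 0.469). For PER2, PER3, CRY2 and CLOCK, r was -0.38, -0.38, 0.38 and -0.14, and rho -0.17, -0.38, 0.58 and -0.28. None of the 6 relations passed the threshold by either measure (exact permutation tests, smallest unadjusted p = 0.115 for r and 0.108 for rho).

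Without young 1 and old 3, the ovaries farthest from the ARNTL median, r was -0.39 with NR1D1, -0.39 with PER1 and 0.57 with CRY2. After each age group was centred on its mean, the r with NR1D1 was 0.48 (exact permutation within groups, p = 0.296) and that with PER1 was -0.17 (exact p = 0.681). With CLOCK the centred r was 0.63 (exact p = 0.185). None passed the threshold.

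**Figure D3:**
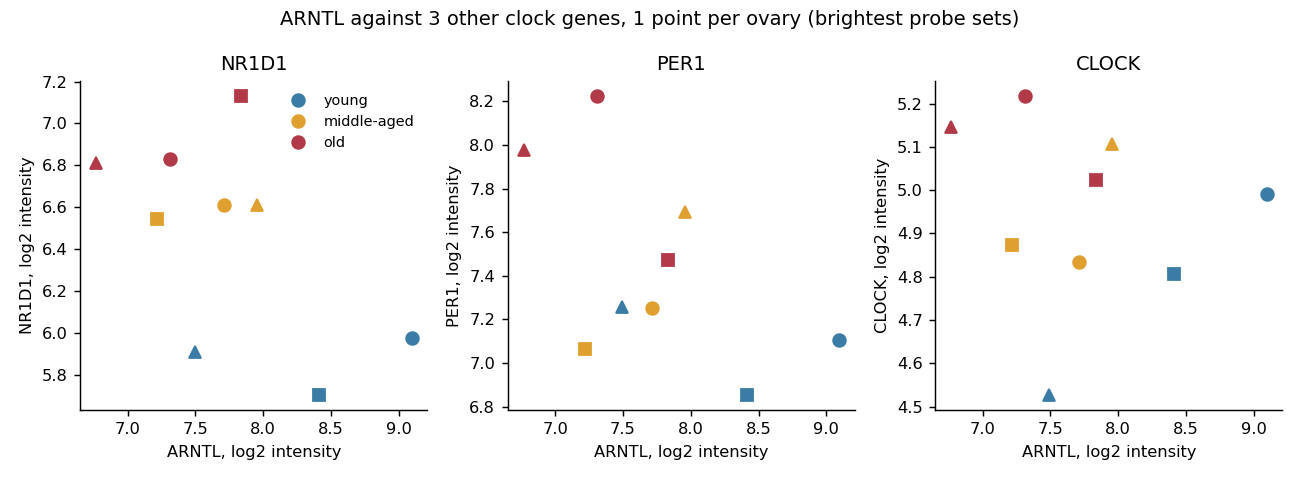
Log2 intensity of ARNTL on the horizontal axis against that of 3 other clock genes on the vertical axis, brightest probe set of each, with 1 point per ovary, colours for the age groups and shapes for the animal's number. In the NR1D1 panel the 3 age groups form separate bands of NR1D1 (52.1 to 62.8, 93.4 to 97.8 and 112 to 140.2 in intensity) over overlapping ranges of ARNTL.

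The rest of the clock was taken from a list of 27 further genes, of which 20 had a probe set (39 in all). None of the 39 was called in any comparison by limma. Between old and young ovaries 16 had positive and 23 negative log2 fold changes, with a median of -0.09 against 0.01 over all probe sets. At an unadjusted p under 0.05 from limma, 1 was higher and 9 were lower, which is 25.6% of the 39 against 13.5% of all probe sets. Without overlap, 4 lay above and 9 below the young ovaries, where 7.38% and 9.46% of all probe sets did. SAM called 1, the USP2 probe set MmugDNA.7084.1.S1_at.

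The lower values lay mainly with output genes and a paralogue of ARNTL. USP2, a deubiquitinase and a rhythmic output gene in many tissues, read 147, 315 and 328 in young, 154, 210.01 and 294 in middle-aged and 46.4, 71.8 and 121 in old ovaries at MmugDNA.13382.1.S1_at. All old ovaries lay below all others. Its log2 fold change between old and young was -1.74 with a standard error of 0.43 (limma, adjusted p = 0.159), and that of MmugDNA.7084.1.S1_at was -1.03 (limma, adjusted p = 0.217). The USP2 probe set MmugDNA.29898.1.S1_at read 26.5 to 34.5 over all ovaries, with a value of 0.03.

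WEE1, a kinase that holds back entry into mitosis and is clock controlled in liver, read 112, 174 and 162 in young, 114, 139 and 73.0 in middle-aged and 41.5, 52.5 and 77.5 in old ovaries at MmugDNA.3114.1.S1_at. The old ovaries lay below the young ones and overlapped the middle-aged ones. Its log2 fold change between old and young was -1.41 with a standard error of 0.31 (limma, adjusted p = 0.126), the smallest adjusted p of the 39, and at MmugDNA.28560.1.S1_at it was -0.73. WEE1 is also expressed in dividing cells and oocytes. NAMPT, an enzyme of NAD synthesis, stood apart in a single ovary: its 2 brighter probe sets read 269.9 and 234 in old 1 and at most 45.8 and 42.6 in every other ovary.

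The ARNTL paralogue ARNTL2 had lower old-to-young values at all 3 probe sets. At MmugDNA.13595.1.S1_s_at it read 53.6, 102 and 48.2 in young, 43.3, 32.9 and 37.0 in middle-aged and 25.5, 28.0 and 47.2 in old ovaries. Old ovaries lay below young ones, though old 3 was close to young 3. The log2 fold change was -0.99 with a standard error of 0.32 (limma, adjusted p = 0.250), and those of the other probe sets were -0.81 and -0.70.

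Among the ROR receptors, which activate ARNTL at the sites that NR1D1 binds, RORA read 160.5, 82.4 and 141 in young, 139, 123 and 222 in middle-aged and 224, 188 and 161 in old ovaries at MmugDNA.789.1.S1_at. Its log2 fold change of 0.62 did not pass the threshold (limma, adjusted p = 0.416), and the gap between young 1 and old 3 was under 1 unit of intensity. Among further repressors, BHLHE40 (DEC1) read 284, 192 and 279 in young and 569, 360.1 and 492 in old ovaries at MmugDNA.36318.1.S1_at, without overlap. Its log2 fold change was 0.91 with a standard error of 0.40 (limma, adjusted p = 0.372), and 0.30 at its dim probe set (limma, adjusted p = 0.352). TIMELESS, which in mammals serves DNA replication as well as the clock, read 57.3, 108 and 83.1 in young, 75.0, 67.7 and 72.5 in middle-aged and 54.3, 38.7 and 46.7 in old ovaries at MmugDNA.5714.1.S1_at. Old ovaries were below all others there, with a log2 fold change of -0.80 against young (limma, adjusted p = 0.203).

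The D-box factor TEF differed by 0.39 on the log2 scale from young to old ovaries (limma, adjusted p = 0.433). NFIL3, the other D-box factor measured, went the other way with -0.86 and overlapping groups (limma, adjusted p = 0.449). FBXW11, a ubiquitin ligase subunit that acts on PER proteins, had 0.35 at MmuSTS.3712.1.S1_at (limma, adjusted p = 0.378). At its other probe set, MmugDNA.1149.1.S1_at, the value was -0.02 (limma, adjusted p = 0.982). All 6 probe sets of NCOR1 and HDAC3, the corepressors that REV-ERB receptors recruit, had negative values, between -0.28 and -0.06. The lowest unadjusted p of these was that of NCOR1 at MmugDNA.40146.1.S1_at, at -0.20 on the log2 scale (limma, adjusted p = 0.452).

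**Figure D4:**
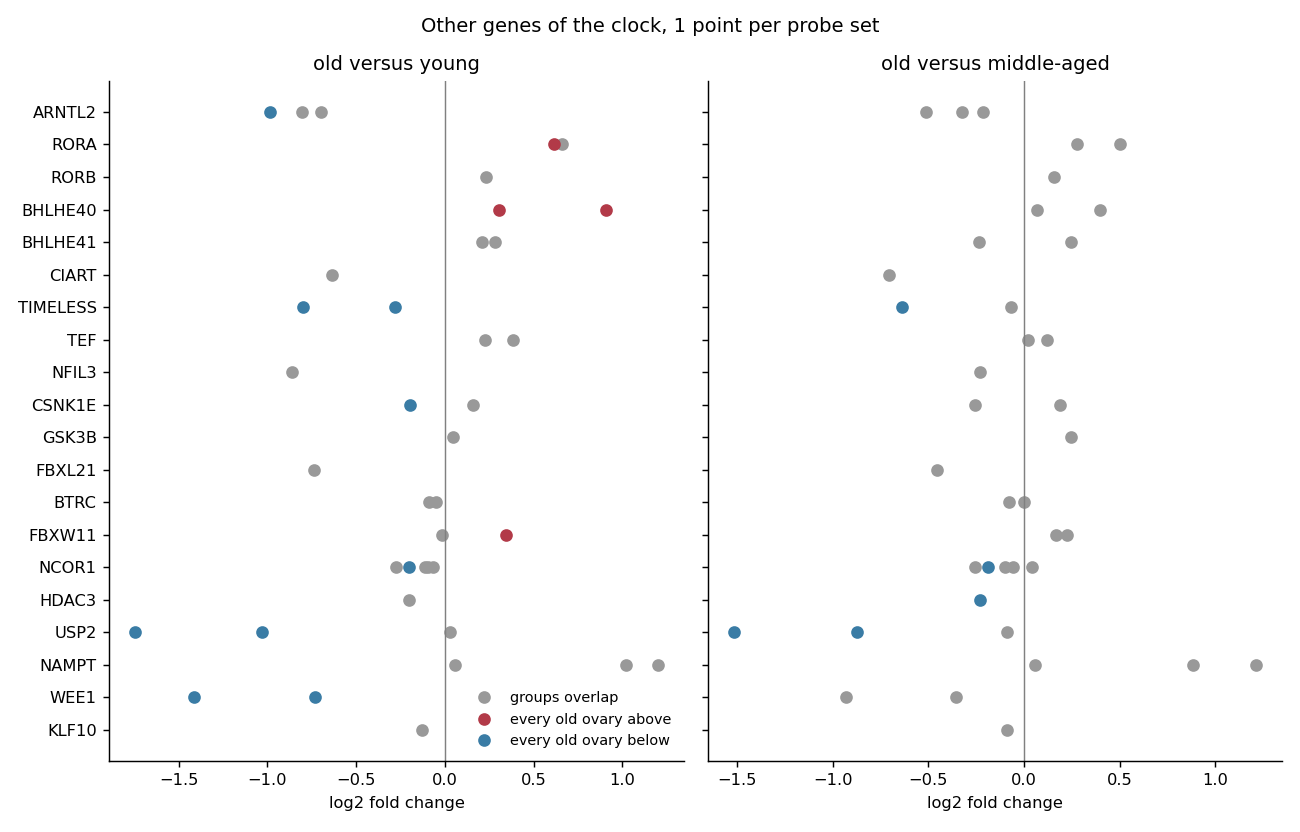
Log2 fold changes of the 39 probe sets of 20 other clock genes, 1 point per probe set and 1 row per gene, with 1 panel per comparison and colours for probe sets whose groups do not overlap. In the old-to-young panel 4 coloured points lie to the right of 0 and 9 to the left, with USP2 at -1.74 and WEE1 at -1.41 the farthest left.

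Genes on which REV-ERB receptors, steroids or acute stimuli are known to act gave no call in these lists. The 4 measured REV-ERB target genes ELOVL3, PPARGC1A, G6PC and FGF21, known mostly from liver and fat, had 6 probe sets with old-to-young values from -0.14 to 0.23. FGF21 was the highest of them (limma, adjusted p = 0.459). STAR, which brings cholesterol into the mitochondrion for steroid synthesis and is described as a clock output in ovarian cells, read 2090, 975 and 646 in young ovaries. It read 2740, 2942 and 663 in middle-aged and 21679, 12233 and 3448 in old ovaries, above all others. Its log2 fold change between old and young was 3.15 with a standard error of 0.81 and did not pass the threshold (limma, adjusted p = 0.169).

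PER1 is known to respond directly to glucocorticoids and to acute stimuli, so genes of both kinds were read beside it. Of 7 probe sets of 5 glucocorticoid-induced genes, 6 had positive old-to-young values. DUSP1 was highest at 1.73 with a standard error of 0.52 (limma, adjusted p = 0.222), and its other probe set gave 0.34. TSC22D3 (GILZ) had 0.64 (limma, adjusted p = 0.254), and FKBP5, a sensitive glucocorticoid target, had 0.03. Of 6 probe sets of 4 immediate early genes, 4 had positive values, with FOS at 1.63 and JUNB at 1.40 (limma, adjusted p = 0.464 and 0.416). FOS and JUNB had 2.04 and 1.44 between middle-aged and young ovaries, and -0.41 and -0.04 between old and middle-aged ovaries. The part of such stimuli in the PER1 values was not tested.

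The probe sets nearest to NR1D1 in pattern over the 9 ovaries, among the brightest probe sets of 14131 other genes, were those of IL6 (r = 0.97), TBKBP1 (0.95), LOC715289 (0.95), PGPEP1 (0.95) and IER5L (0.95). TBKBP1, an adaptor of the kinase TBK1, read 44.3 to 49.4 in young, 53.1 to 57.6 in middle-aged and 61.1 to 64.8 in old ovaries. IER5L read 51.7 to 83.6, 94.0 to 101 and 114 to 164 in the same order. IL6, a cytokine, was at 5.52 to 10.5, near or below the first quartile of the arrays. LOC715289 was likewise dim, at 7.12 to 9.67. The farthest in the opposite direction were PNLIP (-0.96), CCDC138 (-0.96), MAP3K4 (-0.95), SHMT1 (-0.93) and S100PBP (-0.93). Of these, PNLIP at 5.33 to 15.0 and CCDC138 at 7.08 to 11.9 were also dim. SHMT1, an enzyme of folate metabolism, read 95.4 to 108 in young, 60.2 to 85.5 in middle-aged and 50.96 to 53.1 in old ovaries. These are the extremes of a ranking of all genes and carry no test.

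Markers of several cell types differed between the groups. Of 7 oocyte markers 5 were measured, all with negative old-to-young values and 3 of them called lower, and their summed intensity was 1559 to 5625 in young, 814 to 3636 in middle-aged and 85.1 to 98.5 in old ovaries. The 6 surface epithelium markers summed to 2773 to 4698, 1683 to 2468 and 1143 to 1836. Of these, 5 had negative old-to-young values and 1, KRT18, a positive one (log2 fold change 0.91). The 3 measured of 5 markers of theca and steroid-making cells summed to 982 to 3861, 984 to 5102 and 5913 to 24103, and the 2 measured of 3 blood markers to 332 to 594, 825 to 1529 and 1005 to 2773. In these 4 sets the old and young ranges of the sums did not overlap. In every ovary most of the blood sum was HBB. The other blood marker, ALAS2, read 23.3 to 37.2 over all ovaries, with a log2 fold change of 0.16. In each old ovary most of the theca sum was STAR, whose values are given above. The old and young ranges overlapped for CYP17A1 (log2 fold change 1.31) and HSD3B2 (0.12). All 5 endothelium markers had positive old-to-young values, with a median log2 fold change of 1.59 and none called, and their sums of 1669 to 2238 in young, 2268 to 4791 in middle-aged and 2227 to 9419 in old ovaries overlapped narrowly between young and old. The ranges of the sums also overlapped for granulosa, stroma, smooth muscle, macrophage and T cell markers. The granulosa markers went in different directions, 3 with positive and 1 with a negative old-to-young value. AMH had -3.88 and INHA 2.67, each without overlap between old and young and neither called (limma, adjusted p = 0.160 and 0.259). The 3 smooth muscle markers measured all had positive old-to-young values. The part of cell makeup in the NR1D1, ARNTL, USP2, WEE1 and STAR values was not tested.

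As a measure of RNA quality, the log2 ratio of the 3' to the 5' signal of the actin control was 4.09 to 4.34 in young, 3.74 to 4.35 in middle-aged and 3.89 to 4.38 in old ovaries, so the groups overlapped. The brighter NR1D1 probe set had a Pearson r of -0.26 with it (exact permutation test, two-sided p = 0.505, adjusted p = 0.849) and a Spearman rho of -0.24 (exact p = 0.528, adjusted p = 0.912). The dimmer NR1D1 probe set had an r of -0.88 (exact p = 0.00288, adjusted p = 0.0317 over 11 probe sets), whereas its rho of -0.63 did not pass (exact p = 0.0760, adjusted p = 0.418). The r was -0.88 after centring on group means (exact p = 0.0185) and -0.75 without middle-aged 1 and old 1 (exact p = 0.0474). No other clock probe set passed by r over all 9 ovaries, and with the GAPDH control none did (exact permutation tests, smallest adjusted p = 0.320). With actin 9 of the 11 r values were negative and 2 positive, with GAPDH 6 and 5. PER3 at MmugDNA.14106.1.S1_at had a centred r of -0.79 with actin (exact permutation within groups, unadjusted p = 0.0278). Without the same 2 arrays its r was -0.86 (exact permutation test, unadjusted p = 0.00317). PER2 at MmugDNA.41285.1.S1_at had a centred r of -0.83 with GAPDH (exact permutation within groups, unadjusted p = 0.00926). Within each age group the actin and GAPDH ratios both rose with the replicate number. In these relations RNA quality and replicate number therefore cannot be told apart. RNA spike-in controls read 0.62 above the mean array on young 3 and 0.74 above it on old 3, on the log2 scale. Without these 2 arrays the NR1D1 value was 1.14 with an adjusted p of 0.132 from limma.

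**Figure D5:**
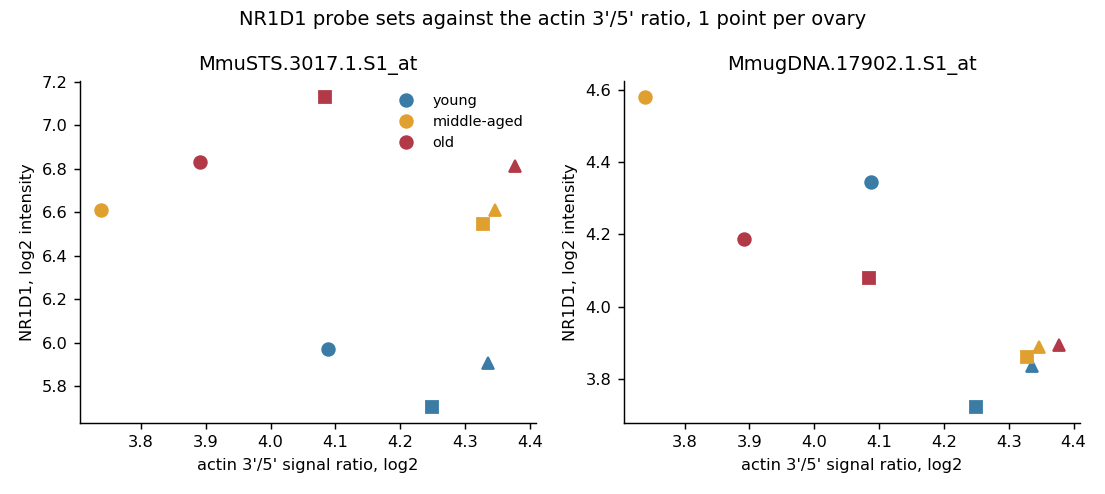
Log2 intensity of the 2 NR1D1 probe sets, 1 per panel, against the log2 ratio of the 3' to the 5' actin signal, with 1 point per ovary and colours for the age groups. The dimmer probe set falls as the ratio rises (r = -0.88), with middle-aged 1 and old 1 at the low ratios, and the brighter one is layered by age group (r = -0.26).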

How the data were processed

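RNA of 9 ovaries was hybridized, biotin-labelled, to 9 one-colour rhesus arrays. The deposited intensity values are linear, from 3.14 to 26458, and per the labels the authors made them with RMA, whose version is not stated. The methods instead describe LOWESS with dye reversal, steps of 2-colour slides, so how scans became values rests on the labels. No detection calls, scan dates or batches are given. The number of arrays limits the precision.

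From the table of 52865 probe sets, 99 control probe sets were left out and the log2 of each deposited intensity was taken with no further scaling. Using limma (version 3.58.1) in R (version 4.3.3), 1 mean per age group was fitted over all 9 arrays, with 6 residual degrees of freedom before moderation, and p-values were adjusted by Benjamini-Hochberg over 52766 probe sets. Gene names come from the platform annotation, which gives 1 symbol to 24956 of them. Replicates were separate monkeys. The background step of RMA is known to compress differences of dim probe sets.

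Every probe set of the clock genes is named. Of each other list, the gene with the smallest unadjusted p per role between old and young is named, and the 5 genes most and least like NR1D1. Named outside this rule, after their values were seen, were USP2, BHLHE40, NAMPT, NFIL3, HDAC3, TSC22D3, FKBP5 and FOS. So were the other REV-ERB targets, single theca and granulosa markers, and probe sets beside the first of a gene. The ARNTL relations were planned for 9 partners, of which 6 were measured, and the RNA quality relations were added after seeing the data. The members and lists were chosen with earlier results of these data known.

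Alternatives were 2 scalings, a filter on dim probe sets, an intensity trend, array weights, no fold minimum, the compared groups alone, a replicate block, SAM at a q limit of 5 percent, averaged probe sets, and arrays left out. The fits were tested on simulated data.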

Additional observations from a re-analysis of the deposited data

How the results depend on the processing

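Between old and young ovaries, the count of clock probe sets called was 1, and it went to 0 with an intensity trend (NR1D1 adjusted p = 0.0545 from limma), with the compared groups alone (0.125), with 1 averaged value per gene (0.192), with SAM (q = 0.102), without the arrays numbered 3 (0.187) and, chosen after seeing the data, without young 3 and old 3 (0.132). With each array left out in turn the count ran from 0 to 1. It stayed at 1 with centred arrays, quantile normalization, the brighter probe sets, array weights and no fold minimum. The count of other clock probe sets called went from 0 to 1 with the replicate block and with SAM, each time a USP2 probe set that was lower in old ovaries. In the comparisons with middle-aged ovaries no clock probe set was called under any alternative, and none of the 6 ARNTL relations passed under any alternative run. No called direction reversed. The cause of these shifts was not tested, except that fewer arrays or groups leave fewer residual degrees of freedom.

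The labels do not say whether animals with the same replicate number were paired. Over 9 pairs of arrays with the same number, the correlation of their deviations from the group means ran from -0.02 to 0.41, with 5 above 0.1. Among these, the pairs of arrays numbered 3 had 0.41, 0.25 and 0.35. Pairs of arrays with different numbers, from different groups, ran from -0.42 to 0.25. The GAPDH 3' to 5' log2 ratio rose with the replicate number in every group. It was 1.77, 1.99 and 2.22 in young, 1.69, 1.86 and 2.25 in middle-aged, and 1.64, 2.11 and 2.36 in old ovaries. The actin ratio rose in the same order in every group. The part of RNA quality in the correlations of same-numbered arrays was not tested. With the replicate block NR1D1 was still called (adjusted p = 0.0470 from limma) and the calls over all probe sets between old and young went from 82 to 229. They were 424 by SAM, 27 with the compared groups alone, 54 with probe sets averaged, 2 without the arrays numbered 3 and 9 without young 3 and old 3, and from 4 to 198 with an array left out. Between old and middle-aged ovaries they went from 18 to 48 by SAM, 28 with the block, 9 with centred arrays, 5 with the compared groups alone and 2 without the arrays numbered 3, and from 1 to 42 with an array left out. Signal over background is unknown for each probe set, which limits most what the dim ones (both of PER2, MmugDNA.14106.1.S1_at of PER3 and MmugDNA.17902.1.S1_at of NR1D1) can show.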
